A study of Drosophila melanogaster with 6 samples.

Results

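The genes described here run mitosis, from the cyclins and kinases that start it to the condensin, kinetochore, separase and spindle proteins that carry it out. They are a list of 44 genes named for their roles as mitotic cyclins, kinases, checkpoint, condensin, separase, kinetochore and spindle genes, and all 44 matched a row by FlyBase symbol among the 17807 genes measured. The RNA came from progenitors of the adult Drosophila melanogaster midgut, that is from intestinal stem cells and from enteroblasts, their immediate daughters. The series holds 3 H1 RNAi libraries (esgts, UAS-GFP with the construct UAS H1 RNAi 1) and 3 control libraries (esgts, UAS-GFP alone), lettered A, B and C in each group. All 6 carry the temperature-sensitive esg driver and the GFP reporter, and each is annotated with an induction of 4 days at 29 °C. The H1 RNAi flies add a knockdown construct against the linker histone H1, the protein that sits where DNA enters and leaves the nucleosome. A growth protocol shared by all samples instead gives 1 day at 29 °C for flies that were 3 days old and kept at 18 °C before, and names another transgene. Guts were pooled, 70 for each replicate, dissociated, and sorted for GFP. The driver is active in stem cells and enteroblasts alike, so each value is an average over cells that divide and cells that are leaving the cycle. Whether the 3 replicates of a group were separate crosses is not stated, so the p-values rest on a spread between libraries that may be technical.

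Mitosis begins when Cdk1 is bound by cyclin A or B and stripped of its inhibitory phosphate by the phosphatase String. Condensin and topoisomerase II then compact the chromosomes, kinetochores built on the centromeric histone Cid attach them to the spindle, and the checkpoint holds back the anaphase-promoting complex (APC/C) until all are attached. Once active, the APC/C destroys the cyclins and securin, which frees separase to cut cohesin. In the adult fly midgut the stem cell is the main dividing cell, whereas enteroblasts that become enterocytes switch to endocycles, rounds of DNA replication without division. Transcripts of mitotic genes in this tissue are therefore widely read as a sign of dividing progenitors.

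Values are TPM (transcript abundance scaled to gene length and to a common library total), so levels of different genes can be compared, but the sequencing depth is unknown. The 23 annotated copies of His1, the gene targeted, were listed at 0 in all 6 libraries, so the table gives no reading of the knockdown. Histone mRNAs of this class lack the poly(A) tail by which the kit selects. Progenitor markers were present in each library, with Sox100B, a stem cell and enteroblast factor, at 635 to 656 TPM in H1 RNAi and 599 to 720 TPM in control. The symbols esg and Dl matched no row and are not analysed here. The 9 progenitor markers found summed to 1233 to 1295 TPM in H1 RNAi and 1120 to 1329 TPM in control. Of the 8 tested, 0 were called, and 5 had positive and 3 negative log2 fold changes, from -0.43 (zfh2) to 1.33 (sna). For 3 (37.5%, against 23.8% of all tested genes) the unadjusted p was under 0.05 (limma). The 2 genes mira and escl (25%, against 24.3% of all tested genes) were higher in each H1 RNAi library than in any control library. Markers of enteroendocrine cells, which mostly do not divide, summed over 10 genes to 1061 to 1556 TPM in H1 RNAi and 2341 to 3124 TPM in control, without overlap. That sum was mostly the hormone gene NPF, at 891 to 1331 TPM in H1 RNAi and 1964 to 2616 TPM in control. Of the 10 genes NPF and Tk were called lower, 4 had positive fold changes, and Mip and CCHa2 were higher in each H1 RNAi library than in any control library without being called. For 11 enterocyte markers the sums were 734 to 1940 TPM in H1 RNAi and 506 to 1520 TPM in control. Germline markers, which would come with dividing ovary cells, summed to 1.23 to 1.69 TPM over 9 genes in H1 RNAi and 0.80 to 6.31 TPM in control, with vas no higher than 0.13 TPM anywhere. Control B stood apart in this list through bam (5.0 TPM) and in the 7 fat body markers, which summed to 13.2 to 21.0 TPM in H1 RNAi and to 86.0 TPM in control B, against 21.5 and 25.8 TPM in the other control libraries. In control B that sum was mostly Yp1 (43.5 TPM) and Yp2 (22.7 TPM), each at 0.83 TPM or less in every other library. The 5 follicle cell markers summed to 7.57 to 12.3 TPM in H1 RNAi. In control they summed to 19.5 TPM in library B, mostly slbo (18.8 TPM), against 1.94 TPM in A and 1.79 TPM in C. The part of these differences between libraries in the results below was not tested, and in bulk RNA fewer cells of a type and less RNA per cell cannot be told apart.

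Mitotic transcripts were low in both groups. The median of the 44 gene means was 5.57 TPM in H1 RNAi and 3.89 TPM in control, and 21 genes in H1 RNAi and 27 in control had a mean under 5 TPM. Of the 44, 33 were at 1 TPM or more in all 6 libraries and none was listed at 0 in any. The highest were cnn, Top2, fzr, Bub3, Cap-H2, Bub1 and CycA, the 7 genes with a mean of at least 20 TPM in either group. Several of these are also known to act outside mitosis. The product of fzr, for example, activates the APC/C in late mitosis and G1 and is needed for endocycles, and Cap-H2 belongs to condensin II, which shapes interphase chromosomes in flies. At the other end were Nek2, cid, Sse and asp, which averaged 1.35 TPM or less over the 6 libraries. The 7 highest genes and cana took the first 8 ranks in both groups.

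**Figure D1:**
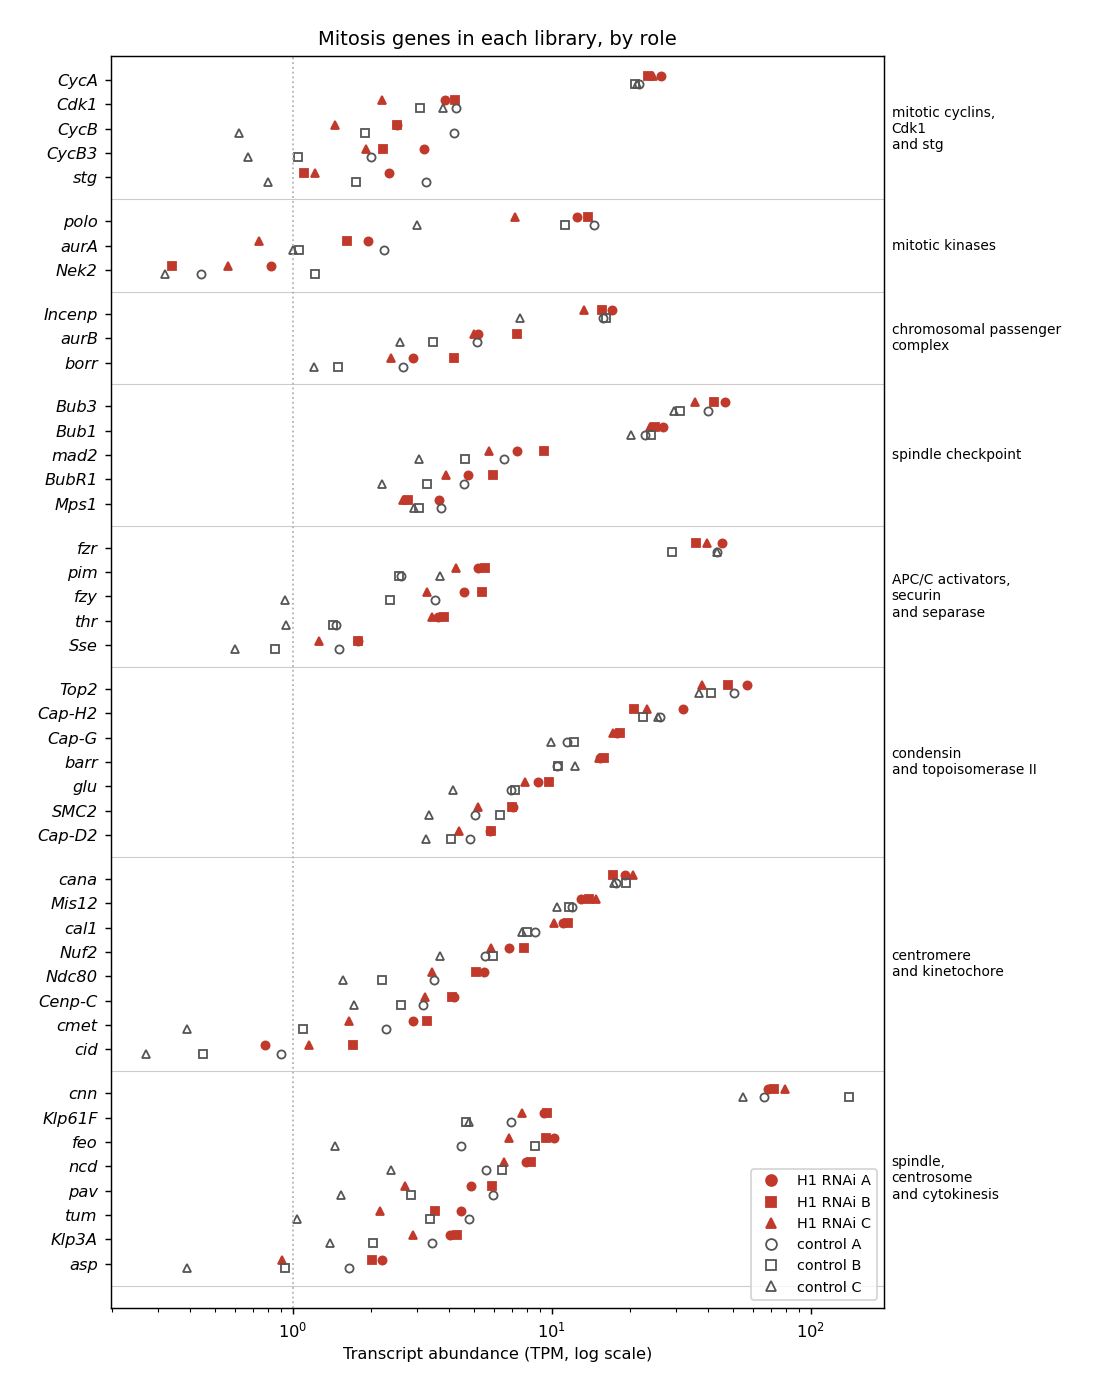
Transcript abundance of the 44 mitosis genes in each library, in TPM on a log scale, grouped by role and ordered within a role by mean level. Filled red symbols are the 3 H1 RNAi libraries and open grey symbols the 3 control libraries, with the shape giving the letter. Most genes lie under 10 TPM (30 by their H1 RNAi mean, 32 by their control mean), and control C (open triangle) is the lowest point for 32 of the 42 tested genes.

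The comparison asks how these genes stand when H1 is targeted in the progenitors. In H1 RNAi, thr and Cap-G were higher than in control, and 0 genes of the group were lower. The gene thr encodes the regulatory partner of separase in flies, and Cap-G encodes a subunit of condensin. In total 42 genes passed the filter of at least 1 TPM in at least 3 libraries, all but cid and Nek2. With limma across all genes at an adjusted p of 0.05, 2 of the 42 were called, both higher in H1 RNAi. Across all 8124 tested genes 2.83% were called, with 2.28% higher and 0.554% lower in H1 RNAi, against 4.76% of the mitosis genes. An unadjusted p under 0.05 was found for 9 of the 42, or 21.4%, against 23.8% of all tested genes. The 3 H1 RNAi values lay above all 3 control values for 11 of the 42 (26.2%), against 24.3% of all tested genes. They lay below all control values for 0 of the 42, against 6.45% of all tested genes. By these counts the shares called, and the shares without overlap on the higher side, were near those of the whole table.

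The fold changes of the mitosis genes were centred higher than those of the table. Their median log2 fold change of TPM + 1 was 0.39, against 0.14 for all tested genes, and it was positive for 38 of 42 (90.5%), against 68.3% of all tested genes. The excess of positive values in the whole table moved with the scaling. Under TMM scaling (a trimmed mean of log ratios between libraries) the median of all tested genes was 0.02, that of the mitosis genes was 0.29, and 34 of 42 were positive. Under quantile normalization the medians were -0.01 for all tested genes and 0.21 for the mitosis genes, with 32 of 42 positive. Without the filter, over all 44 genes, the median was 0.39 and 39 were positive, against a median of 0.04 for 13713 genes. The gap between the medians, 0.25 in log2, depended on the libraries and the pseudocount. It was 0.13 without control C (0.22 for the mitosis genes and 0.09 for all tested genes), 0.13 with a pseudocount of 5 TPM, and 0.38 without control A. These medians are descriptions of a chosen list and carry no test. As a plain ratio of mean TPM, 18 of the 44 genes were at least 1.5 times as high in H1 RNAi and 3 (thr, cid and cmet) at least 2 times as high, while 6 had a ratio below 1.

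**Figure D2:**
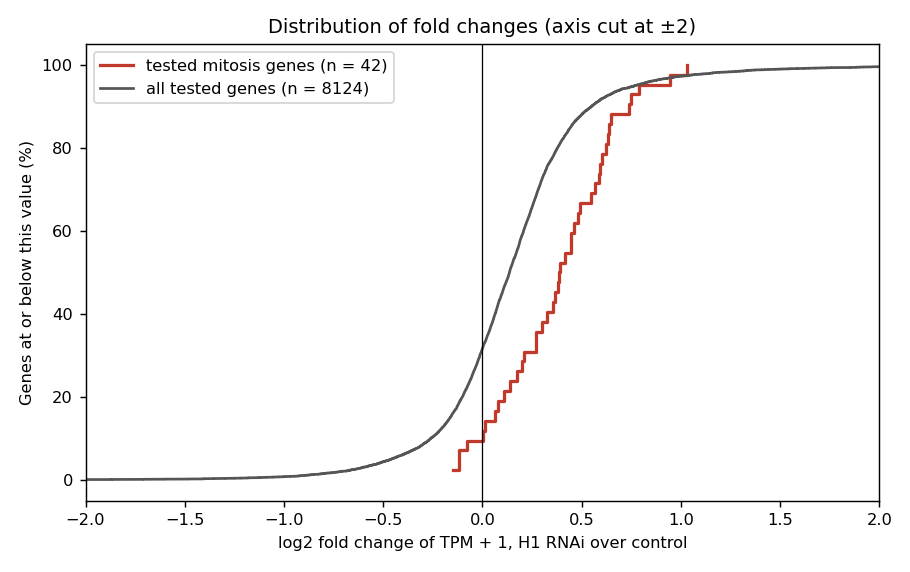
Cumulative share of genes (%) by log2 fold change of TPM + 1, H1 RNAi over control, for the 42 tested mitosis genes (red) and all 8124 tested genes (grey), with the axis cut at -2 and 2. The red curve lies right of the grey one except near its top, with medians of 0.39 and 0.14, and its lowest gene is at -0.15. Under TMM scaling the medians were 0.29 and 0.02.

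**Figure D3:**
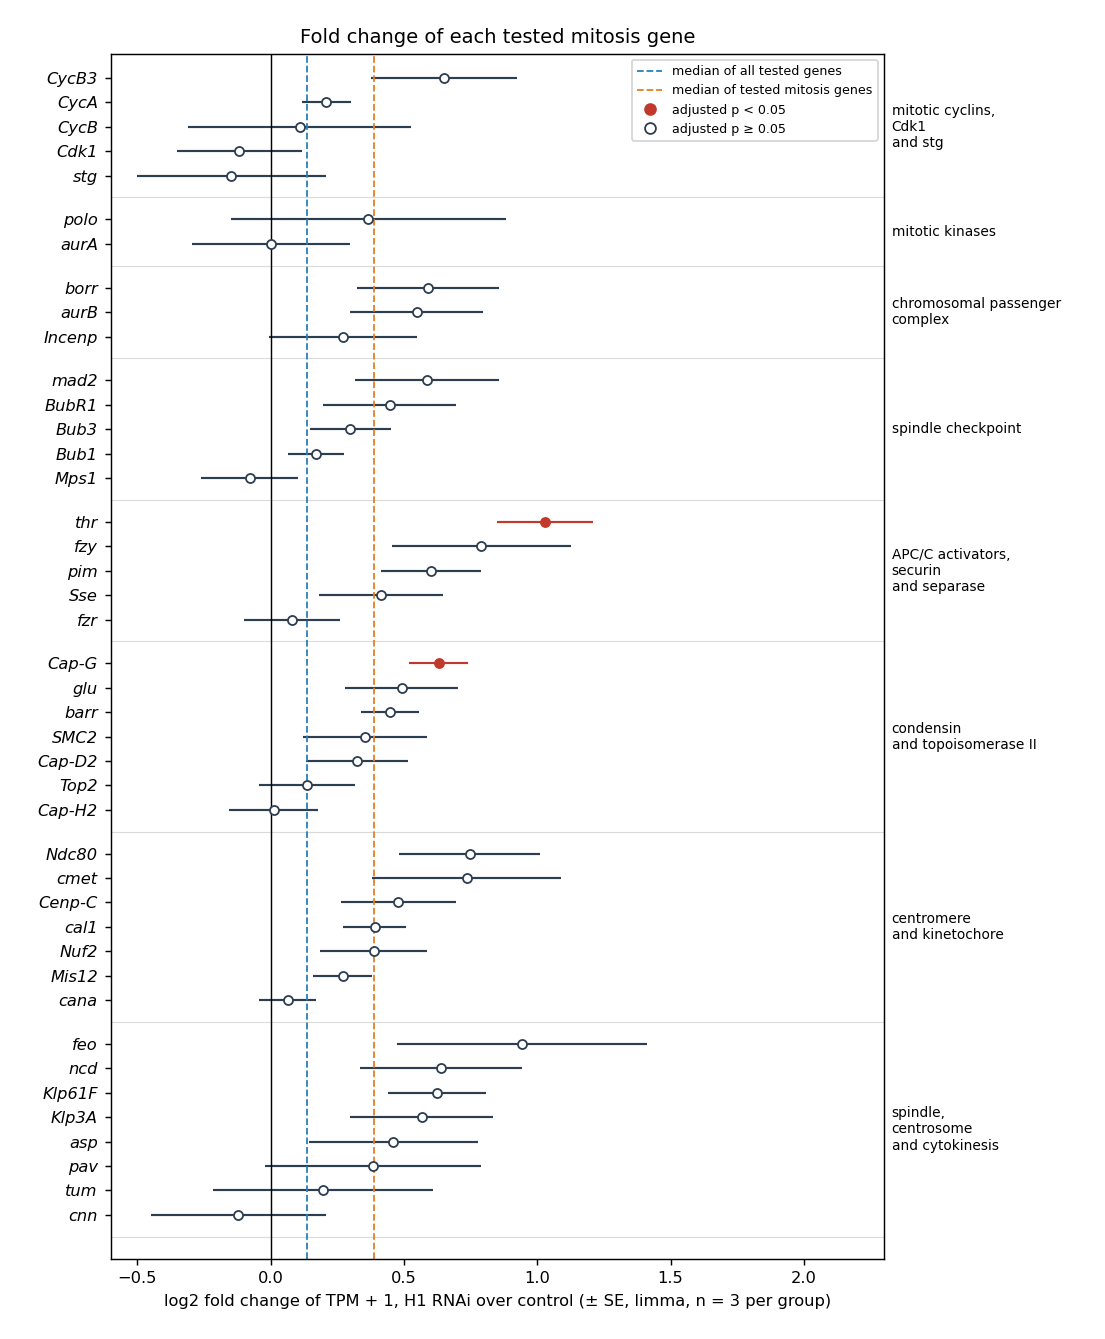
Log2 fold change of TPM + 1, H1 RNAi over control, for the 42 tested mitosis genes by role, with limma's SE (3 libraries per group). Filled red points are the genes called, thr and Cap-G, and dashed lines mark the medians of all tested genes (0.14) and of the mitosis genes (0.39). The signs of aurA, fzr, Cap-H2 and cana turned negative under TMM scaling and quantile normalization, and those of CycB and Bub1 under quantile normalization.

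The separase branch held the largest fold change of the group. The gene thr (2R, 17861273 to 17865963 in BDGP6.54) was at 3.64, 3.82 and 3.43 TPM in H1 RNAi A, B and C, against 1.47, 1.43 and 0.94 TPM in control A, B and C. Each H1 RNAi library was thus more than 2 times as high as any control library, and the groups did not overlap. The means were 3.63 ± 0.20 TPM in H1 RNAi and 1.28 ± 0.30 TPM in control (SD, n = 3 each). The log2 fold change was 1.03 ± 0.18 (limma's SE), with an adjusted p of 0.0383. The ratio of thr to Sse, the separase it binds, was 2.03 to 2.72 in the H1 RNAi libraries and 0.98 to 1.68 in the control libraries. Sse itself was at 1.79, 1.78 and 1.26 TPM in H1 RNAi and at 1.5, 0.85 and 0.60 TPM in control, with overlap (adjusted p = 0.324). The securin gene pim, whose product holds separase inactive until anaphase, was at 5.16, 5.50 and 4.28 TPM in H1 RNAi and 2.61, 2.57 and 3.69 TPM in control. Its groups did not overlap, but it did not pass over all genes (log2 fold change 0.60 ± 0.19, adjusted p = 0.121).

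The thr call held under both other scalings (adjusted p = 0.0459 with TMM and 0.0474 with quantile normalization). It was lost with no filter (0.0653) and when any 1 library other than control B was left out (0.175 at most, without H1 RNAi B), while its log2 fold change stayed between 0.92 and 1.09. Over 263 bp of its exons thr overlaps CG14490 on the other strand, at 0.693 TPM in H1 RNAi and 0.797 TPM in control.

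The pair of APC/C activators stood at very different levels. The Cdc20 homologue fzy, which opens anaphase, was at 4.58, 5.37 and 3.29 TPM in H1 RNAi and 3.53, 2.37 and 0.93 TPM in control. Its log2 fold change of 0.79 ± 0.34 was the third largest of the group but did not pass (adjusted p = 0.212), and control A lay above H1 RNAi C. The Cdh1 homologue fzr was the highest gene of this role, at 45.5, 35.9 and 39.6 TPM in H1 RNAi and 43.3, 29.1 and 43.4 TPM in control (adjusted p = 0.828). Within a library fzr exceeded fzy by a factor of 6.69 to 12.0 in H1 RNAi and 12.3 to 46.6 in control. No H1 RNAi library reached the lowest control ratio, and control C gave the highest. These ratios were not tested.

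All 7 genes of the condensin and topoisomerase II role had positive fold changes (100%, against 68.3% of all tested genes). Of them 1, Cap-G, was called (14.3%, against 2.83%). An unadjusted p under 0.05 (limma) was found for 2 (28.6%, against 23.8%). Without overlap, 3 were higher in H1 RNAi (42.9%, against 24.3%). Cap-G (2R, 13133142 to 13142820) was at 17.8, 18.4 and 17.2 TPM in H1 RNAi, against 11.4, 12.1 and 9.96 TPM in control. The groups did not overlap, and the gap between them was wider than the range within either group. The means were 17.8 ± 0.56 TPM in H1 RNAi and 11.2 ± 1.11 TPM in control (SD, n = 3 each). The log2 fold change was 0.63 ± 0.11, with an adjusted p of 0.0374. The kleisin barr, which closes the condensin I ring, was at 15.4, 15.8 and 15.2 TPM in H1 RNAi and 10.4, 10.5 and 12.3 TPM in control. It did not overlap between groups and missed the threshold (log2 fold change 0.45 ± 0.11, adjusted p = 0.0779, limma). Its adjusted p was 0.241 with TMM scaling (log2 fold change 0.33) and 0.367 with quantile normalization (log2 fold change 0.23). The ATPase subunits SMC2 and glu (the fly SMC4) had ranges of 5.19 to 7.10 and 7.85 to 9.74 TPM in H1 RNAi, against 3.34 to 6.32 and 4.14 to 7.21 TPM in control, and neither passed (adjusted p = 0.400 and 0.215). The groups overlapped for SMC2 but not for glu. Cap-D2, the lowest of this role, was at 5.74, 5.80 and 4.39 TPM in H1 RNAi and 4.83, 4.06 and 3.27 TPM in control (adjusted p = 0.343). The 5 condensin I subunits therefore did not stand at equal levels: Cap-G exceeded SMC2 by a factor of 2.51 to 3.32 in H1 RNAi and 1.92 to 2.98 in control.

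The Cap-G call was lost with TMM scaling (adjusted p = 0.0543), with quantile normalization (0.0766), with no filter (0.0704) and on leaving out any single library except control B (up to 0.181 without H1 RNAi B), with a log2 fold change of 0.56 to 0.69 over the libraries left out. No annotated exon of another gene overlaps it.

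The other 2 genes of this role were higher in level, and their groups overlapped. Top2, which encodes the enzyme that untangles DNA, was at 56.9, 47.8 and 37.9 TPM in H1 RNAi and 50.6, 41.1 and 37.1 TPM in control (log2 fold change 0.14, adjusted p = 0.686). Cap-H2, the condensin II kleisin, was at 20.8 to 32.1 TPM in H1 RNAi and 22.5 to 26.2 TPM in control (adjusted p = 0.976). It shares 135 bp with TfIIFbeta on the other strand, which averaged 25.2 TPM in H1 RNAi and 17.3 TPM in control. The sources used here do not state whether reads were counted by strand. Cap-D3, another condensin II subunit, was placed with the further kinetochore and checkpoint genes below and not in this role. It was at 6.5, 4.96 and 5.23 TPM in H1 RNAi and 7.66, 8.46 and 6.55 TPM in control. Cap-D3 thus lay lower in each H1 RNAi library than in any control library, without being called (log2 fold change -0.38, adjusted p = 0.211, limma).

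**Figure D4:**
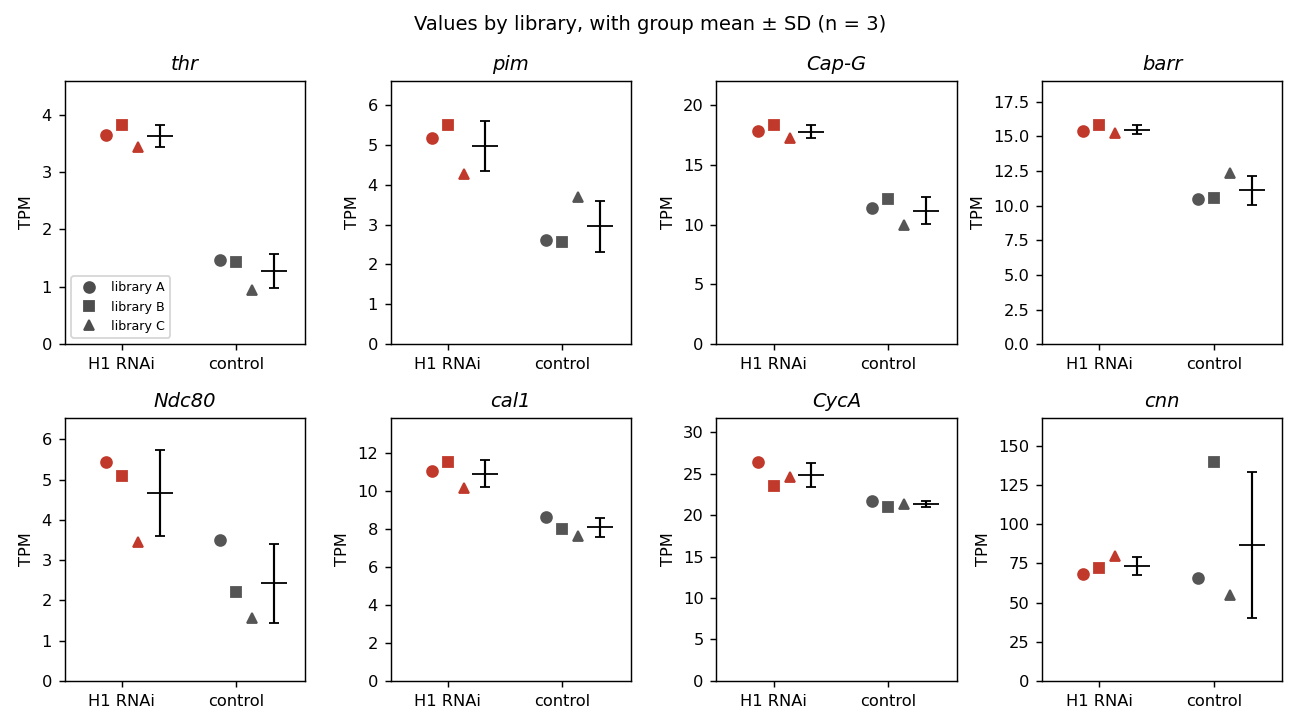
TPM of 8 mitosis genes in each library, with the group mean ± SD (n = 3) as a black bar to the right of the points. The groups are apart for thr, pim, Cap-G, barr, cal1 and CycA, and overlap for Ndc80 and cnn. Only thr and Cap-G passed over all genes, and Cap-G did not under TMM scaling or quantile normalization.

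Among the drivers of mitotic entry, cyclin A stood far above the others. CycA was at 26.5, 23.6 and 24.6 TPM in H1 RNAi and 21.7, 21.0 and 21.4 TPM in control, which did not overlap. The difference was small and not called (log2 fold change 0.21 ± 0.09, adjusted p = 0.215). The B-type cyclins were near 2 TPM. CycB, whose product is a main Cdk1 partner, ranged from 1.45 to 2.53 TPM in H1 RNAi and from 0.62 to 4.17 TPM in control (adjusted p = 0.902), and the control values spanned those of H1 RNAi. CycB3 was at 3.20, 2.23 and 1.92 TPM in H1 RNAi and 2.0, 1.05 and 0.67 TPM in control (log2 fold change 0.65 ± 0.27, adjusted p = 0.208). Cyclin A transcripts exceeded those of CycB by a factor of 9.32 to 16.9 in H1 RNAi and 5.20 to 34.5 in control.

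The kinase that the cyclins activate and its activator were 2 of the 4 tested genes with a negative fold change, the others being Mps1 and cnn. Cdk1 was at 3.85, 4.22 and 2.21 TPM in H1 RNAi and 4.25, 3.10 and 3.81 TPM in control (log2 fold change -0.12, adjusted p = 0.805). The Cdc25 phosphatase gene stg was at 2.34, 1.10 and 1.22 TPM in H1 RNAi and 3.27, 1.75 and 0.80 TPM in control (log2 fold change -0.15, adjusted p = 0.838). Both overlapped between groups, and each turned positive when 1 library was left out: Cdk1 without H1 RNAi C (0.10) and stg without control A (0.17).

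Of the mitotic kinases, polo was the highest. It was at 12.5, 13.8 and 7.19 TPM in H1 RNAi and 14.6, 11.3 and 3.00 TPM in control (adjusted p = 0.707), with control A the highest of the 6 libraries and control C the lowest. The centrosomal kinase gene aurA had the same mean in both groups, 1.44 ± 0.63 TPM in H1 RNAi and 1.44 ± 0.71 TPM in control (SD, n = 3 each). Nek2 was at 0.82, 0.34 and 0.56 TPM in H1 RNAi and 0.44, 1.22 and 0.32 TPM in control and was not tested. The chromosomal passenger complex, which corrects wrong attachments, is made of the kinase Aurora B, Incenp and Borealin among others. Incenp was at 17.0, 15.7 and 13.3 TPM in H1 RNAi and 15.8, 16.1 and 7.5 TPM in control (adjusted p = 0.594). The gene borr, for Borealin, was at 2.91, 4.18 and 2.39 TPM in H1 RNAi and 2.66, 1.49 and 1.21 TPM in control (adjusted p = 0.231), and aurB at 4.99 to 7.33 and 2.58 to 5.15 TPM (adjusted p = 0.237). None of the 3 passed, with log2 fold changes of 0.27 to 0.59.

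The spindle checkpoint genes fell into a high and a low set. Bub3, for a scaffold of the checkpoint, was at 46.5, 42.4 and 35.8 TPM in H1 RNAi and 40.1, 31.3 and 29.6 TPM in control (adjusted p = 0.283), and Bub1 at 24.0 to 26.9 and 20.2 to 24.1 TPM. The inhibitors that form the checkpoint complex were lower: mad2 ranged from 5.72 to 9.31 TPM in H1 RNAi and 3.06 to 6.51 TPM in control, and BubR1 from 3.90 to 5.92 and 2.21 to 4.56 TPM. Mps1, for the kinase that starts checkpoint signalling, was at 3.67, 2.77 and 2.65 TPM in H1 RNAi and 3.72, 3.06 and 2.94 TPM in control (log2 fold change -0.08, adjusted p = 0.835). All 5 overlapped between groups, whereas 24.3% of all tested genes lay higher and 6.45% lower in H1 RNAi without overlap. Of the 5, 0 passed (2.83% of all tested genes) and 0 had an unadjusted p under 0.05 (23.8% of all, limma).

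Centromere and kinetochore genes had log2 fold changes of 0.06 to 0.75, with 0 of 7 called (2.83% of all tested genes). An unadjusted p under 0.05 (limma) was found for 3 (42.9%, against 23.8% of all tested genes). Another count, of genes higher in H1 RNAi without overlap, was also 3 (42.9%, against 24.3%). The gene cid, for the centromeric histone H3 variant, was the lowest at 0.78, 1.71 and 1.15 TPM in H1 RNAi and 0.90, 0.45 and 0.27 TPM in control, under the filter. Its loading factor cal1 was at 11.0, 11.5 and 10.1 TPM in H1 RNAi and 8.62, 7.99 and 7.63 TPM in control, without overlap (log2 fold change 0.39 ± 0.12, adjusted p = 0.113). The exons of cal1 share 406 bp with cher on the other strand, which averaged 208 TPM in H1 RNAi and 247 TPM in control. Cenp-C, which links the centromere to the kinetochore, ranged from 3.24 to 4.17 TPM in H1 RNAi and 1.72 to 3.19 TPM in control, and Mis12, of the linker complex, from 12.98 to 14.8 and 10.4 to 12.0 TPM. Both were without overlap but not called (adjusted p = 0.232 and 0.195).

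On the log2(TPM + 1) scale Ndc80, for a microtubule-binding kinetochore protein, had the largest fold change among the 7 tested genes of this role, although cid (2.25) and cmet (2.08) exceeded it (1.92) as a ratio of mean TPM. Ndc80 was at 5.45, 5.10 and 3.44 TPM in H1 RNAi and 3.50, 2.21 and 1.56 TPM in control (log2 fold change 0.75 ± 0.26, adjusted p = 0.153), with H1 RNAi C just under control A. Its partner Nuf2 ranged from 5.83 to 7.82 TPM in H1 RNAi and 3.70 to 5.92 TPM in control (adjusted p = 0.289). The neighbouring kinesin genes cana and cmet are both related to vertebrate CENP-E. cmet was at 2.90, 3.29 and 1.64 TPM in H1 RNAi and 2.29, 1.09 and 0.39 TPM in control (log2 fold change 0.74 ± 0.35, adjusted p = 0.260). cana was at 19.2, 17.2 and 20.6 TPM in H1 RNAi and 17.7, 19.3 and 17.3 TPM in control (log2 fold change 0.06, adjusted p = 0.757). Their level ratio, cana over cmet, was 5.23 to 12.6 in H1 RNAi and 7.73 to 44.4 in control, and the 2 genes share sequence, so how reads were divided between them is uncertain.

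Spindle motors and cytokinesis genes had positive fold changes in 7 of 8 cases (87.5%, against 68.3% of all tested genes). Of the 8, 0 passed (2.83% of all), and 1 (12.5%, against 23.8% of all) had an unadjusted p under 0.05 (limma). Klp61F, for the kinesin-5 that pushes spindle poles apart, ranged from 7.68 to 9.59 TPM in H1 RNAi and 4.65 to 6.94 TPM in control (log2 fold change 0.62 ± 0.18, adjusted p = 0.109). ncd, for a minus-end kinesin, ranged from 6.52 to 8.30 and 2.40 to 6.41 TPM (adjusted p = 0.252). These 2 were without overlap (25%, against 24.3% of all tested genes). The midzone bundler feo had a large fold change and a wide spread, at 10.1, 9.51 and 6.80 TPM in H1 RNAi and 4.45, 8.63 and 1.45 TPM in control (log2 fold change 0.94 ± 0.47, adjusted p = 0.273). Partners in centralspindlin, the complex that positions the cleavage furrow, were similar to each other: pav ranged from 2.71 to 5.89 TPM in H1 RNAi and 1.53 to 5.93 TPM in control, and tum from 2.16 to 4.44 and 1.04 to 4.80 TPM. The kinesin-4 gene Klp3A ranged from 2.92 to 4.31 and 1.39 to 3.45 TPM, and asp, for a spindle pole protein, was at 2.20, 2.02 and 0.91 TPM in H1 RNAi and 1.64, 0.93 and 0.39 TPM in control.

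The gene cnn, for a scaffold protein of the centrosome, was the highest of the 44. It was at 68.1, 72.3 and 79.7 TPM in H1 RNAi and 65.8, 140.1 and 54.7 TPM in control. Control B alone lay above all H1 RNAi libraries, and control A and C below them. The log2 fold change was -0.12 ± 0.33 (adjusted p = 0.856) and became 0.28 without control B. Because of this library the summed TPM of the 44 genes, 466 to 547 in H1 RNAi and 357 to 490 in control, depended on cnn. Without it the sums were 386 to 479 TPM in H1 RNAi and 302 to 408 TPM in control.

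Much of the variation among mitosis genes was shared between genes and ran within groups. Control C had the lowest value of the 6 libraries for 32 of 42 tested genes (76.2%), against 34.2% of all tested genes, and the highest for 0. Within H1 RNAi, library C was the lowest for 35 of 42 genes (83.3%), against 50.7% of all tested genes. Within control, library C was again the lowest for 35 of 42 (83.3%), against 45.6%. The median deviation of the mitosis genes from their own 6-library mean, in log2(TPM + 1), was 0.31, 0.30 and 0.02 in H1 RNAi A, B and C and 0.12, -0.19 and -0.57 in control A, B and C. For all tested genes the same deviations were 0.13, 0.09 and -0.0048 in H1 RNAi and -0.02, -0.04 and -0.15 in control. Control A, by this measure, stood above H1 RNAi C.

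Control C lay far under the other control libraries for part of the group. For 12 of 42 genes control C was under 0.5 times the mean of control A and B, namely CycB, CycB3, stg, polo, Incenp, fzy, cmet, ncd, pav, tum, feo and asp. No other library stood that far under its group for more than 2 of the 42. The called genes thr and Cap-G were not among them, nor were barr and cal1. Control C was still the lowest library for thr (0.94 TPM), Cap-G (9.96 TPM) and cal1 (7.63 TPM). Without control C the log2 fold changes were 0.92 for thr and 0.56 for Cap-G, and neither was called (adjusted p = 0.124 and 0.125, limma). The 10 tested genes for which control C was not the lowest library were CycA, Cdk1, aurA, Mps1, fzr, pim, barr, Cap-H2, cana and Klp61F. The highest control value was at least 2 times the lowest for 20 of 42 mitosis genes (47.6%), against 16.3% of all tested genes, whereas in H1 RNAi this held for 6 of 42 (14.3%), against 9.01%. These shares are not matched for level: the median of the 6-library means was 5.22 TPM for the 42 and 21.3 TPM for all tested genes. The largest SEs of the log2 fold change were those of polo (0.52), feo (0.47), CycB (0.42), tum (0.41) and pav (0.40).

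**Figure D5:**
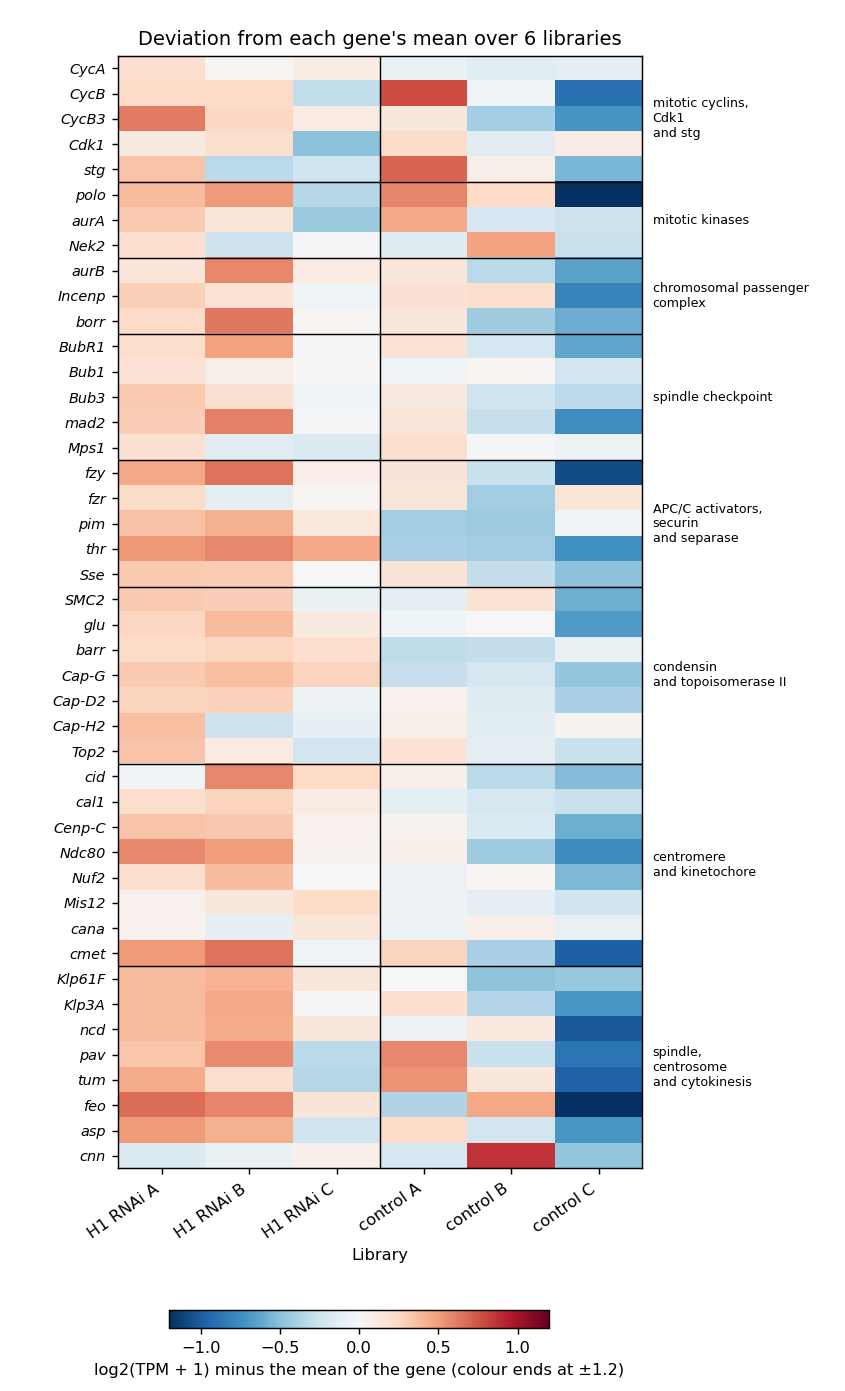
Deviation of each of the 44 mitosis genes in each library from the mean of that gene over the 6 libraries, in log2(TPM + 1), with rows grouped by role. Control C is blue in most rows (median -0.57 over the 42 tested genes) and H1 RNAi A and B are mostly red (0.31 and 0.30). Rows of CycA, pim, thr, glu, barr, Cap-G, cal1 and Mis12 are positive in all H1 RNAi libraries and negative in all control libraries.

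Other genes of the same machinery gave 2 calls. Of 27 tested spindle and centrosome genes outside the 44, 1 rose and 0 fell (3.7% called, against 2.83% of all tested genes), with a list median log2 fold change of 0.20. The call was ana1, a centriole gene, at 9.67, 12.6 and 11.6 TPM in H1 RNAi and 5.76, 6.53 and 5.08 TPM in control (log2 fold change 0.85 ± 0.15, adjusted p = 0.0418). It was lost with no filter (0.0723), with TMM scaling (0.0668), with quantile normalization (0.0808) and without any single library except control B (up to 0.191), and 192 bp of its exons overlap Cftr on the other strand, at 90.4 TPM in H1 RNAi and 82.8 TPM in control. Sas-4, another centriole gene, ranged from 5.59 to 7.76 TPM in H1 RNAi and 2.3 to 3.3 TPM in control and missed the threshold (adjusted p = 0.0506). It passed with a pseudocount of 5 TPM, ordinary moderation, array weights or without control B. Among 9 other cytokinesis genes, 1 rose and 0 fell (11.1% called), with a median of 0.07. That gene was pbl, which is needed for cytokinesis, and its fold change exceeded that of each of the 44. It was at 24.5, 49.0 and 35.7 TPM in H1 RNAi and 5.81, 11.1 and 10.03 TPM in control, without overlap (log2 fold change 1.89 ± 0.30, adjusted p = 0.0324). The pbl call was lost with no filter (0.0637), with quantile normalization (0.0564) and without H1 RNAi B, H1 RNAi C, control A or control C (up to 0.122).

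The remaining mitotic lists had no call in this fit. Over all tested genes 2.83% were called, 23.8% had an unadjusted p under 0.05, and 68.3% were positive. No APC/C subunit or cofactor passed among 11 tested (limma), 5 of 11 (45.5%) had an unadjusted p under 0.05, the median log2 fold change was 0.34, and all 11 were positive. Among 11 further kinetochore and checkpoint genes, 0 passed (5 at an unadjusted p under 0.05, or 45.5%, with limma), with a median of 0.47, Spindly being closest (log2 fold change 0.74, adjusted p = 0.0779) and called with ordinary moderation. Of these 11 genes 10 were positive and 1, Cap-D3, was negative (log2 fold change -0.38). Cohesin genes, the target of separase, had a median of 0.11 over 11 tested (limma, 0 called, 2 or 18.2% at an unadjusted p under 0.05). The largest difference among them was in mei-S332, the fly shugoshin that protects centromeric cohesin, at 31.5, 32.1 and 28.9 TPM in H1 RNAi and 52.5, 58.7 and 40.6 TPM in control (log2 fold change -0.68 ± 0.15, adjusted p = 0.0613). It was called lower with TMM scaling (adjusted p = 0.0189), with quantile normalization (0.0197) and with array weights (0.0424), and the adjusted p over all 15 alternatives was 0.0189 to 0.217. It lay lower in each H1 RNAi library than in any control library, whereas no tested gene of the 44 did so. Its exons share 100 bp with Vrp1 on the other strand, at 400.2 TPM in H1 RNAi and 447 TPM in control. The 8 tested Cdk1 regulators and mitotic phosphatases gave 0 calls (limma, 0 at an unadjusted p under 0.05) and a median of 0.22.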

How the data were processed

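Gene expression was measured as TPM in 6 libraries, and the authors deposited 1 table of TPM per gene and library, rounded to 2 decimals. The submitters' processing notes name bcl2fastq and dm6, and the labels' protocols give a stranded kit that selects mRNA. The sources used here name no aligner, counting method or annotation. Depth cannot be recovered from TPM, so counting error is unknown. A gene name table gave symbols for 17710 of 17807 identifiers. Coordinates are 1-based, from Ensembl release 115 on BDGP6.54, which uses dm6 coordinates.

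The 8124 genes that reached 1 TPM in 3 or more of the 6 libraries were fitted on log2(TPM + 1) with limma 3.58.1 in R 4.3.3 (mean trend, robust moderation), H1 RNAi over control, with Benjamini-Hochberg adjustment over all tested genes at 0.05. Fold changes on this scale understate the change of genes near 1 TPM. With 3 libraries per group an exact permutation p cannot be smaller than 0.1, and no such test is given. The procedure was tested on simulated data, drawn for each gene independently from a normal distribution. Effects were given only to genes at higher control levels than thr. Those data lacked variation shared between genes, so they do not show how the procedure behaves with it or at the level of thr. Tables and figures used Python 3.11.15, pandas 2.3.3, numpy 2.4.6 and matplotlib 3.10.9.

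The members and lists were chosen with earlier results of these data known. Values in every library are given for called members, the 6 largest rises, the 4 falls, and the highest and lowest gene of each role. Members without overlap between groups, and the others singled out, were added after their values were seen. In other lists the 3 genes with the smallest adjusted p could be named. Cap-D3, mira, escl, sna, zfh2, pros, Yp1, Yp2 and slbo were added after their values were seen. The alternatives were pseudocounts of 0.1 and 5, no filter, a filter at 5 TPM, TMM (trims of 0.3 and 0.05) and quantile scaling, ordinary moderation, array weights, a block for the replicate letter, and leaving out each library. Promoter motifs were not analysed here.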

Additional observations from a re-analysis of the deposited data

How the results depend on the processing

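The median fold change of the mitosis genes kept its sign in all 15 alternatives, from 0.21 to 0.53. The calls did not hold as well. The number of mitosis genes called was 2 as reported, 1 with TMM scaling or quantile normalization, and 0 with no filter. It was 1 of 22 tested with the filter at 5 TPM, where Cap-G stayed called (adjusted p = 0.0381, limma) and thr was not tested. The count over all genes, 230 as reported, was 90 with no filter, 131 with TMM scaling (87 higher, 44 lower), 146 with quantile normalization (83 higher, 63 lower) and 547 with array weights. On leaving out 1 library the counts were 29 (without H1 RNAi B) to 450 (without control B) over all genes and 0 to 2 among the mitosis genes, where only the fit without control B gave 2. The cause was not tested, and fewer libraries also leave fewer degrees of freedom. With the replicate letter as a replicate block, 142 genes and 0 mitosis genes were called (adjusted p = 0.0608 for thr and 0.0577 for Cap-G), and ana1 had an adjusted p of 0.0579. The letters are not known to pair libraries: correlations of same-lettered deviations were 0.40 (A), 0.14 (B) and 0.09 (C), and H1 RNAi C correlated best with control B (0.17).

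Signs changed only for genes that were not called. Log2 fold changes became -0.073 for aurA, -0.044 for fzr, -0.11 for Cap-H2 and -0.055 for cana with TMM scaling. With quantile normalization they became -0.038 for CycB, -0.15 for aurA, -0.016 for Bub1, -0.057 for fzr, -0.17 for Cap-H2, -0.15 for cana, -0.0087 for Wee1 and -0.0048 for CycD. With array weights they became -0.047 for aurA, -0.053 for fzr, -0.10 for Cap-H2 and 0.076 for cnn, and with a pseudocount of 0.1 TPM -0.0059 for aurA. Over the libraries left out in turn, the values ran from -0.15 to 0.23 for aurA, -0.11 to 0.17 for fzr, -0.16 to 0.14 for Cap-H2, -0.25 to 0.10 for Cdk1, -0.46 to 0.17 for stg, -0.19 to 0.0021 for Mps1, -0.39 to 0.28 for cnn, -0.31 to 0.53 for CycB, -0.23 to 0.75 for polo, -0.061 to 0.44 for Incenp and -0.24 to 0.52 for tum. Depth is unknown, so how far counting error limits the genes near 1 TPM cannot be given.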

Other observations

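Among genes of the phases before mitosis, those of DNA replication had mostly positive fold changes. Of 16 tested, 0 were called (2.83% of all tested genes) and 3 (18.8%, against 23.8% of all) had an unadjusted p under 0.05 with limma, the median log2 fold change was 0.41, and 15 (93.8%, against 68.3% of all) were positive. PCNA, for the sliding clamp of DNA polymerase, was at 46.2, 77.1 and 45.8 TPM in H1 RNAi, against 23.6, 33.4 and 12.2 TPM in control, without overlap (log2 fold change 1.32 ± 0.37, adjusted p = 0.0988). It was called with array weights and without control B. Of 10 tested G1/S regulators 0 were called (1, or 10%, at an unadjusted p under 0.05, limma), with a median of 0.14, equal to that of all tested genes at this rounding, and 6 (60%) positive. Cdk2, the partner of cyclin E, was at 4.30, 4.94 and 4.37 TPM in H1 RNAi and 2.99, 2.92 and 2.90 TPM in control (adjusted p = 0.119).

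The Myb-MuvB and dREAM complexes, known in flies to control many G2/M genes, had members that differed in opposite directions without a call (0 of 10, with 2, or 20%, at an unadjusted p under 0.05, limma). Of the 10, 8 were positive (80%, against 68.3% of all tested genes) and 2 negative, with a list median log2 fold change of 0.19. Myb, for the activator, was at 83.8, 71.4 and 65.9 TPM in H1 RNAi and 58.8, 45.3 and 40.2 TPM in control (log2 fold change 0.62 ± 0.17, adjusted p = 0.0922). In contrast mip130, for a subunit known to hold Myb targets repressed, was at 11.0, 8.57 and 6.87 TPM in H1 RNAi and 15.8, 14.2 and 13.5 TPM in control (log2 fold change -0.67 ± 0.17, adjusted p = 0.0850). It was called lower with quantile normalization (adjusted p = 0.0431), and over all 15 alternatives the adjusted p was 0.0431 to 0.286. Both were without overlap between groups. In the annotation Myb shares 2903 bp of exon with CG46440 on its own strand, and mip130 shares 153 bp with eIF2Bepsilon on the other strand, at 42.0 TPM in H1 RNAi and 26.6 TPM in control.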
